A study of Mus musculus with 6 samples.

Results

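The 7 striated myosin heavy chain genes Myh1, Myh2, Myh3, Myh4, Myh6, Myh7 and Myh8 were followed in bulk RNA-seq of the parietal bone of newborn C57BL/6 mice. They are 7 of 44556 genes in the count tables, and all 7 were among the 15600 genes that passed the filter on low counts. The family was chosen by its values in these same libraries, because Myh4 fell while Myh3 rose between the genotypes. Its levels and differences are therefore given as a description, without a test.

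The study compared 3 libraries from OsxCre mice with 3 libraries labelled OsxCre;Stat3fl/fl from their littermates. Both groups carry Cre recombinase under the control of Osx (osterix), whose activity is mainly in precursors of osteoblasts, and the second group also carries Stat3 alleles with loxP sites around exons that Cre removes. Cre of this line is not directed at muscle cells, so the myosin genes were read in a tissue in which the targeted cells are others than those known to use them. Nothing in the labels ties a library to a litter, and the spread between libraries is taken as that between the 3 mice of a genotype.

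Totals ranged from 8193651 to 12080044 counts per library, and each library labelled OsxCre;Stat3fl/fl was smaller than each OsxCre library. Levels are given as CPM (counts scaled to a common library size, here that given by edgeR's TMM method), on which 3 counts are worth 0.252 to 0.368 CPM. Stat3 itself lay at 150, 135 and 141 CPM in OsxCre libraries 1, 2 and 3 and at 153, 155 and 155 CPM in those labelled OsxCre;Stat3fl/fl. It was thus not lower in the second group, and a count over the whole gene, in a tissue of which only some cells have Cre, does not by itself check the labels. The study describes male newborns, but Xist lay at 881 to 1059 CPM in all 6 libraries and no library had a count on the Y chromosome genes Kdm5d and Ddx3y. Of the Y chromosome genes Eif2s3y and Uty, each had 1 count in library 2 labelled OsxCre;Stat3fl/fl and 0 in every other library.

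Striated muscle contracts when the heads of myosin heavy chains, assembled into thick filaments, pull on actin. Vertebrates hold a separate gene for each of several heavy chains that differ in how fast they split ATP. In skeletal muscle, the embryonic chain (Myh3) and the neonatal, or perinatal, chain (Myh8) come first, and in the weeks around birth they give way to the adult fast chains 2A (Myh2), 2X (Myh1) and 2B (Myh4) in fast fibres. Slow fibres use the beta chain (Myh7), which they share with the ventricle of the heart, and the alpha chain (Myh6) is known mainly from heart muscle. The fast 2B chain is the fastest of these in mice.

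The tissue label is bone, and markers of bone and of skeletal muscle were both abundant in it. The 9 osteoblast markers summed to 14329 to 19313 CPM in the OsxCre libraries and to 13312 to 16942 CPM in the libraries labelled OsxCre;Stat3fl/fl. Most of these sums came from Col1a1, with means of 13055 and 11859 CPM. The 12 skeletal muscle markers, which include Acta1, Ckm and Ttn and none of the myosin heavy chains, summed to 33252, 32219 and 35030 CPM in OsxCre libraries 1, 2 and 3. They summed to 43845, 54724 and 36962 CPM in the libraries labelled OsxCre;Stat3fl/fl, so that each of these stood above each OsxCre library, and library 2 was the highest. In bulk tissue, more cells of a type and more RNA per cell cannot be told apart.

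The 5 skeletal members with Myh13 form 1 group of 293 kb on chromosome 11, all on the plus strand, in the order Myh3, Myh2, Myh1, Myh4, Myh8, Myh13 (RefSeq positions, GRCm38.p6). Myh3 lies at chr11:67078273-67102291 and is set apart by 68.7 kb from Myh2 at chr11:67171027-67197517. Myh1 follows after 2.58 kb at chr11:67200102-67224577, and Myh4 after a further 13.2 kb at chr11:67237812-67260447. Myh8 lies at chr11:67277124-67308634. Myh6 (chr14:54941921-54968017) and Myh7 (chr14:54970684-54994626) lie 2.67 kb apart on the minus strand of chromosome 14. Stat3 is on chromosome 11 too, 33.6 Mb from Myh4.

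Within this group, the promoters of Myh3, Myh1 and Myh4 are shown because Myh4 had the largest decrease of the 7 genes, its near neighbour Myh1 was higher in the same libraries, and Myh3 had the largest increase that all 3 libraries shared. The 250 bases before the start in the RefSeq promoter table are given 5′ to 3′ on the plus strand of GRCm38.p6, at chr11:67078050-67078299 for Myh3, chr11:67199852-67200101 for Myh1 and chr11:67237562-67237811 for Myh4. That start is the first base of the gene for Myh1 and Myh4, and lies at base 67078300 for Myh3, 27 bases into the gene as positioned above, so the Myh3 window holds these 27 bases. Capitals mark the letters CANNTG (an E-box, the core that MyoD-family factors bind) and TATAAA (the box that helps place the start of transcription) on either strand.
Myh3: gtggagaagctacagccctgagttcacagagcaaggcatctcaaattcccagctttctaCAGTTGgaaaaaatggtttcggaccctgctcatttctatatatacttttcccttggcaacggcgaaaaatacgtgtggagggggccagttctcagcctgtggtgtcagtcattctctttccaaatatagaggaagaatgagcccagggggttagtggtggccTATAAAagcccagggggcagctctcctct
Myh1: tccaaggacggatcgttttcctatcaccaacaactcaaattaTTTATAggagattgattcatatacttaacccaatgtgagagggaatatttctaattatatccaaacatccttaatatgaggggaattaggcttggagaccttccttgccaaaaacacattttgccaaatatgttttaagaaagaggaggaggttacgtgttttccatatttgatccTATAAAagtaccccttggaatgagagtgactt
Myh4: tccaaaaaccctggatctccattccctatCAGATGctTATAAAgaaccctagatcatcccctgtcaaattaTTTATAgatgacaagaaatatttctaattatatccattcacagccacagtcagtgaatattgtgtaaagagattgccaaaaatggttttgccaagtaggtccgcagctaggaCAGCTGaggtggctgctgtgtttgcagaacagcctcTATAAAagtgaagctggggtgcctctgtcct
Each of the 3 windows has TATAAA close to its end, at position -29 in Myh3, -32 in Myh1 and -31 in Myh4, counted back from -1 at the last base of the window. Of 32851 promoters of this length, 12.4% hold TATAAA on either strand. The E-box letters occur once in the Myh3 window, at position -191, at -221 and -67 in Myh4 and nowhere in Myh1, and 66.2% of all promoters hold them. The Myh1 and Myh4 windows also share a stretch around a TATAAA on the minus strand, at -208 and -179, and aligned end to end they were 59.8% identical, gaps left out, over 239 aligned bases, against 74.2% over 198 aligned bases for Myh1 and Myh2. The letters TTCNNNGAA of a STAT site, present in 7.02% of all promoters, and those of an MEF2 site (CTA and TAG, 4 bases apart), present in 3.2%, were found in no listed promoter window of the 7 genes. A match or its absence describes only these letters in these windows.

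Myh3, the embryonic chain, was higher in every library labelled OsxCre;Stat3fl/fl. It lay at 345, 298 and 382 CPM in OsxCre libraries 1, 2 and 3 and at 1000, 1555 and 810 CPM in the other 3. The highest OsxCre library was thus below the lowest library labelled OsxCre;Stat3fl/fl. The means were 342 ± 42.0 and 1122 ± 387 CPM (SD, n = 3 each), a ratio of 3.28 and a fitted log2 fold change of 1.71 (SE 0.23). Without library 2, the highest, the log2 fold change was 1.41.

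Myh8, the neonatal chain, also did not overlap between the genotypes, with a smaller difference. Its values were 610, 556 and 555 CPM in the OsxCre libraries and 675, 1073 and 817 CPM in those labelled OsxCre;Stat3fl/fl. The OsxCre values were close together, and the gap between the groups was narrow, with library 1 of the second group only a little above library 1 of the first. The means were 574 ± 31.4 and 855 ± 202 CPM, and the log2 fold change was 0.58, or 0.39 without library 2. Myh8 had between 1.45 and 1.86 counts for each count of Myh3 in the OsxCre libraries, and between 0.675 and 1.01 in the others.

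**Figure D1:**
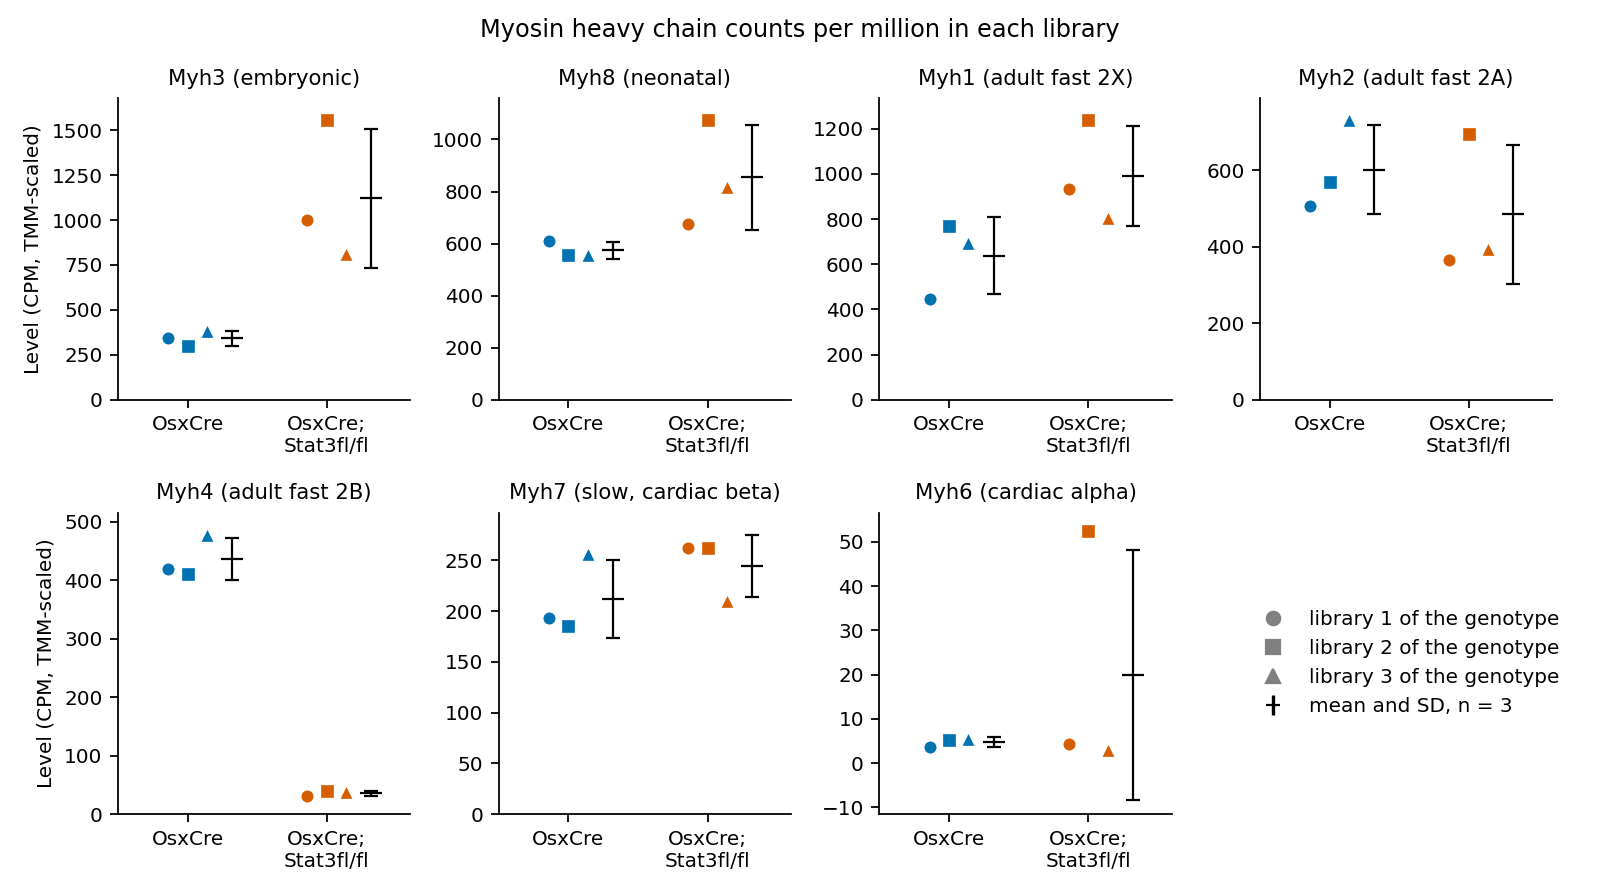
Level of each of the 7 myosin heavy chain genes (CPM, TMM-scaled, linear axes that differ between panels) in OsxCre (blue) and OsxCre;Stat3fl/fl (orange) libraries; the marker shape gives the library number and the black bar the mean and SD of 3 libraries. Myh4 sits between 411 and 478 CPM in OsxCre and between 30.6 and 39.1 CPM in the other group, Myh3 is higher in all 3 of that group, and the Myh6 mean, whose SD bar passes below 0, is set by library 2.

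The adult fast chains did not move as 1 group. Myh4, which encodes the fastest chain, 2B, lay at 420, 411 and 478 CPM in OsxCre libraries 1, 2 and 3 and at 30.6, 39.1 and 37.3 CPM in the libraries labelled OsxCre;Stat3fl/fl. In raw counts these were 4409, 4144 and 5692 against 255, 319 and 319, so that depth was ample on both sides. All 3 libraries of the second group were close to one another and far under the lowest OsxCre library. The means were 436 ± 36.3 and 35.7 ± 4.47 CPM, 12.2 times higher in OsxCre, and the log2 fold change was -3.61 (SE 0.12). It stayed between -3.67 and -3.51 when any 1 library was left out.

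Myh1, the 2X chain whose gene lies directly before Myh4, was on the other side. OsxCre libraries 1, 2 and 3 had 446, 771 and 695 CPM, and those labelled OsxCre;Stat3fl/fl had 933, 1237 and 805 CPM. The groups did not overlap, though OsxCre library 2 and library 3 of the other group were close. The means were 637 ± 170 and 992 ± 222 CPM, with a log2 fold change of 0.64, which became 0.46 without library 2 of the second group and 0.44 without library 1 of the first. For each count of Myh4 there were 1.06, 1.88 and 1.46 counts of Myh1 in the OsxCre libraries and 30.5, 31.6 and 21.6 in the others.

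Myh2, the 2A chain of fast oxidative fibres, overlapped between the genotypes. It lay at 505, 569 and 729 CPM in OsxCre libraries and at 366, 693 and 393 CPM in those labelled OsxCre;Stat3fl/fl. In the second group, libraries 1 and 3 were under all OsxCre libraries, and library 2 was not. The log2 fold change was -0.31, and -0.66 without library 2. Against Myh1, its other neighbour, Myh2 stood at 1.13, 0.739 and 1.05 counts per count in the OsxCre libraries and at 0.392, 0.561 and 0.488 in the others, with no overlap.

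The slow chain Myh7 overlapped between the genotypes. Its values were 194, 186 and 257 CPM in OsxCre and 263, 262 and 210 CPM in those labelled OsxCre;Stat3fl/fl, with a log2 fold change of 0.21 (SE 0.15). Library 3 was the highest of the first group and the lowest of the second. The direction of this small difference depended on the scaling, since it was -0.19 without any scaling of the libraries.

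Myh6, the alpha chain, was the lowest of the 7 in OsxCre and stood apart in 1 library. It had 37, 53 and 65 counts in OsxCre libraries 1, 2 and 3, and 36, 428 and 25 counts in the libraries labelled OsxCre;Stat3fl/fl. In CPM these were 3.52, 5.25 and 5.46 against 4.32, 52.5 and 2.92, so libraries 1 and 3 of the second group lay within or under the OsxCre range and library 2 far above it. The log2 fold change of 2.06 rested on that library and was -0.38 without it. Myh7 had 35.4 to 55 counts for each count of Myh6 in OsxCre and 60.8 and 71.7 in libraries 1 and 3 of the other group, but 4.99 in library 2.

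Several markers of heart muscle were at or near 0 in that library, as in the others, and others had low counts. Nkx2-5 and Hand2, transcription factors of the developing heart, had 0 counts in all 6 libraries, and the atrial hormone gene Nppa had 1 count in all. The atrial light chain gene Myl7 had 1, 0 and 0 counts in OsxCre and 1, 5 and 2 in the others. The heart isoform of troponin I, Tnni3, had 54, 78 and 71 counts in OsxCre and 69, 38 and 35 in the libraries labelled OsxCre;Stat3fl/fl. Ryr2 had 33, 60 and 35 counts against 45, 25 and 36. Mybpc3 had 10, 10 and 16 against 10, 5 and 13, and Myl4 had 9, 5 and 18 against 11, 5 and 8. Library 2 of the second group was thus the highest for Myl7 but not for Tnni3, Ryr2, Mybpc3 or Myl4. Of the 12 heart markers, 4 passed the low-count filter and none was called changed by edgeR's quasi-likelihood test, with 1 higher at an unadjusted p under 0.05 and 1 called higher by DESeq2. Nearly all of their summed level, 276 to 353 CPM against 401 to 502 CPM, came from Sln, which skeletal muscle also uses.

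Counted over the family, 1 member was lower past a 1.5-fold change (Myh4) and 3 were higher (Myh3, Myh1 and, through 1 library, Myh6). Over the 15600 genes tested, 3.71% were lower and 5.12% higher past that fold. Values of the 2 genotypes did not overlap for 1 member on the lower side (Myh4) and for 3 on the higher side (Myh3, Myh8 and Myh1), against 12.2% and 10.8% of all genes tested. Because the family was selected on this comparison, nothing is read from these counts.

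**Figure D2:**
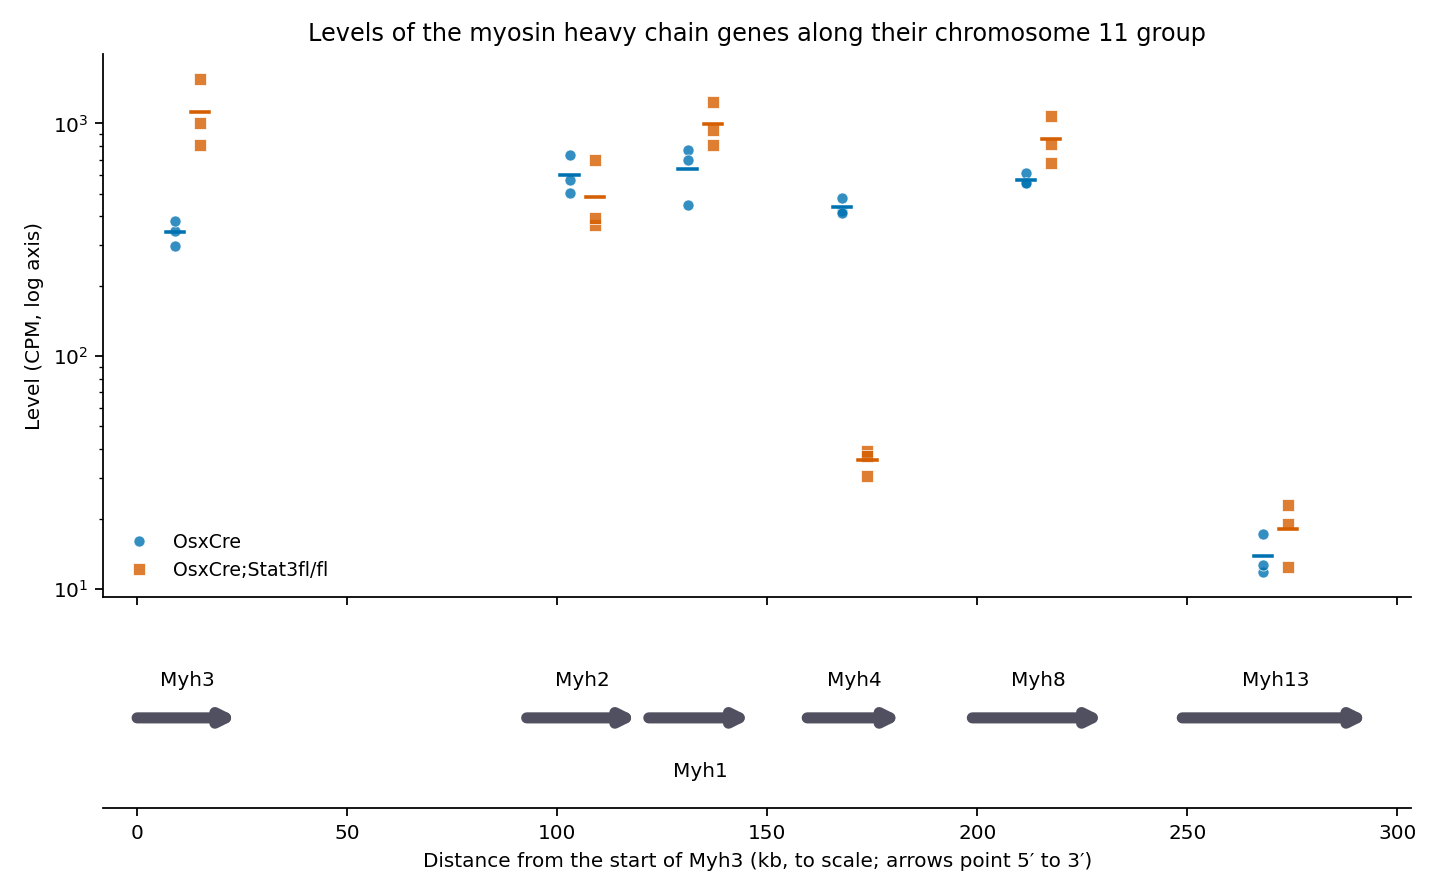
Level (CPM, log axis) of the 6 myosin heavy chain genes of the chromosome 11 group against the distance from the start of Myh3 (kb, to scale), with OsxCre libraries as blue circles, OsxCre;Stat3fl/fl libraries as orange squares and group means as bars; arrows below mark each gene from its start to its end. Myh4 lies more than 10-fold lower in the second group while Myh1 before it and Myh8 after it are higher there.

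The order of the 7 genes was read per kb of transcript, since levels of different genes compare only per length. Their longest transcripts are of similar length, 6016 to 6230 bases, so the order is close to that of CPM. In OsxCre libraries, Myh1 (105 ± 27.9 CPM per kb), Myh2 (98.8 ± 19.0) and Myh8 (93.3 ± 5.11) were at the top and overlapped one another. Myh4 (72.5 ± 6.04), Myh3 (56.6 ± 6.97), Myh7 (34.0 ± 6.24) and Myh6 (0.780 ± 0.175) followed, each below the one before it in all 3 libraries and without overlap.

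In the libraries labelled OsxCre;Stat3fl/fl, the embryonic chain had moved from the fifth place to the first. Myh3 stood at 186 ± 64.2 CPM per kb, Myh1 at 163 ± 36.5, Myh8 at 139 ± 32.8 and Myh2 at 79.6 ± 29.9, and each overlapped the next. Myh7 came next with 39.3 ± 4.88 CPM per kb, without overlap with Myh2. Myh4 stood at 5.93 ± 0.743, below Myh7 in each library, and Myh6 at 3.27 ± 4.64, which overlapped Myh4.

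Shares of the counts on the 7 genes do not depend on their summed level in a library. They do depend on one another, since a rise in the counts of any chain lowers the shares of the others. The embryonic and neonatal chains, Myh3 and Myh8, made up 37.9%, 30.5% and 30.2% of these counts in OsxCre libraries 1, 2 and 3 and 51.2%, 53.5% and 52.9% in those labelled OsxCre;Stat3fl/fl. Their mean share was thus 32.9% ± 4.32 against 52.5% ± 1.20 (SD, n = 3 each). The adult fast chains together made up 54.3%, 62.6% and 61.3% against 40.6%, 40.1% and 40.2%. The second group's libraries were nearly equal in this, although their summed levels of the 7 genes were 3271, 4912 and 3074 CPM. Slow and cardiac chains kept a similar share, 7.70% ± 0.814 and 7.16% ± 0.905.

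This shift lay mostly in Myh3 in the developmental class, and in Myh4 and then Myh2 in the adult fast class. Within the developmental class, Myh3 went from a mean share of 12.2% ± 1.51 to 29.5% ± 2.80, while Myh8 stood at 20.7% ± 3.21 and 23.0% ± 3.14 and overlapped. Within the adult fast class, Myh4 went from 15.6% ± 0.981 to 0.982% ± 0.212. Myh2 went from 21.3% ± 1.93 to 12.7% ± 1.47, also without overlap, though its CPM overlapped between the genotypes. Myh1 was at 22.6% ± 4.95 and 26.6% ± 1.72 and overlapped. Shares taken per kb of transcript gave the same picture, with 32.8% and 52.6% for the embryonic and neonatal chains.

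**Figure D3:**
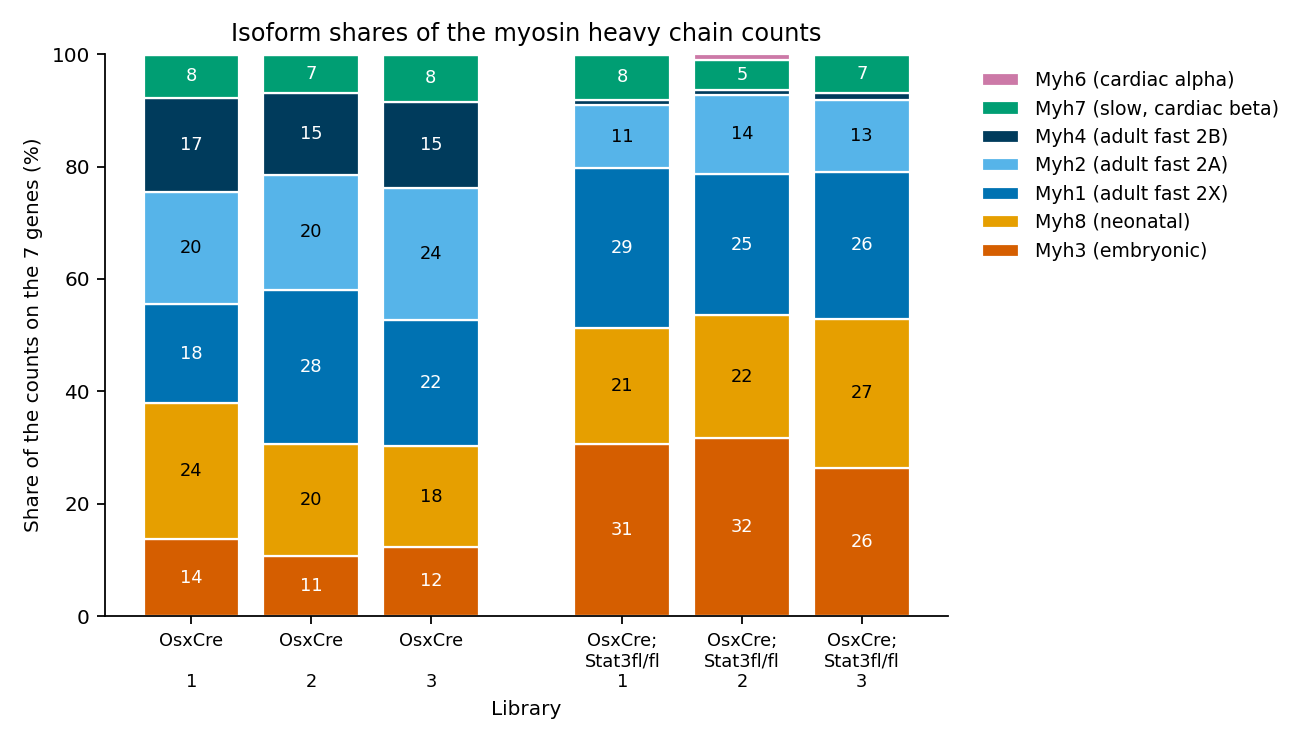
Share of each isoform in the counts on the 7 myosin heavy chain genes (%, stacked to 100) in each of the 3 OsxCre and 3 OsxCre;Stat3fl/fl libraries, with embryonic and neonatal chains in orange tones at the bottom and adult fast chains in blue tones above. The orange part ends between 30.2% and 37.9% in OsxCre and between 51.2% and 53.5% in the other group, and the dark Myh4 band shrinks to about 1%.

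Set against the 12 skeletal muscle markers of the same library, a scaling chosen after the values were seen, 3 members had no overlap between the genotypes. Per 1000 CPM of these markers, Myh3 had 10.4, 9.25 and 10.9 CPM in OsxCre and 22.8, 28.4 and 21.9 CPM in the libraries labelled OsxCre;Stat3fl/fl. Myh4 had 12.6, 12.8 and 13.6 CPM against 0.698, 0.715 and 1.01 CPM. Both genes kept their direction without overlap, with log2 ratios of 1.26 and -4.01. Myh2 now lay apart as well, at 15.2, 17.7 and 20.8 CPM against 8.34, 12.7 and 10.6 CPM, a log2 ratio of -0.76. Myh1 and Myh8, which had been higher in CPM, overlapped and had log2 ratios of 0.20 and 0.15, and Myh7 had one of -0.20.

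**Figure D4:**
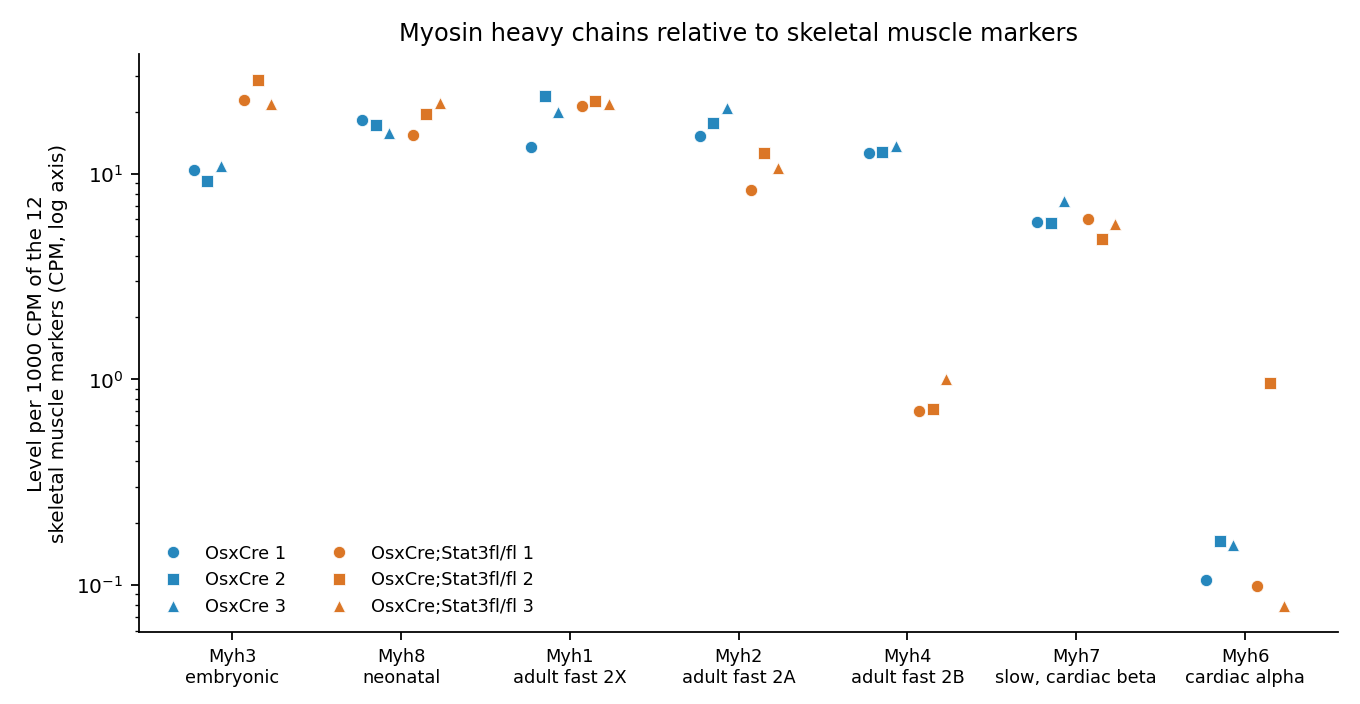
Level of each myosin heavy chain gene per 1000 CPM of the 12 skeletal muscle markers of the same library (CPM, log axis), with OsxCre libraries in blue, OsxCre;Stat3fl/fl libraries in orange and the library number as the marker shape. On this scale the groups separate for Myh3, Myh2 and Myh4, with log2 ratios of 1.26, -0.76 and -4.01, and overlap for the other 4 genes.

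Library 2 labelled OsxCre;Stat3fl/fl was the highest of its group for Myh3, Myh8, Myh1, Myh2, Myh4 and Myh6, as it was for the muscle markers. It deviated from its group's mean log2 level by 0.53 for Myh3, 0.35 for Myh8, 0.34 for Myh1, 0.58 for Myh2 and 2.59 for Myh6, beside 0.28 for the skeletal actin gene Acta1. Myh4 deviated by 0.14. The differences of Myh3 and Myh4 were thus present with and without this library, and that of Myh6 was not.

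Reads of these genes can be hard to assign, since their coding sequences are much alike. Aligned coding sequences were 91.1% identical for Myh1 and Myh2, 90.2% for Myh1 and Myh4 and 91.7% for Myh6 and Myh7. Myh3 was 80.3% to 81.1% identical to the other 4 members on chromosome 11, which were 88.0% to 91.1% identical to one another. Myh13 was not aligned. Of all 50-base words in the transcript, 4.81% of those of Myh3 and 18.9% of those of Myh4 also occur in another gene, against 26.7% for Myh1, 26.9% for Myh2, 21.4% for Myh8, 22.2% for Myh7 and 22.8% for Myh6. With 100-base words these shares were 1.15% for Myh3 and 3.85% for Myh4, and at most 11.5%, that of Myh6. The read length and the treatment of reads with several matches are not given in the sources used here. The levels of all these genes are thus uncertain to an extent that was not measured, with the lowest share of such words in Myh3.

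None of the other myosin heavy chains, including 3 further striated ones, passed the test. Myh13, the extraocular muscle chain that ends the chromosome 11 group, lay at 13.9 ± 2.95 and 18.1 ± 5.32 CPM (log2 fold change 0.37, edgeR adjusted p = 0.497). Myh7b was at 2.79 ± 0.137 and 2.64 ± 0.516 CPM (adjusted p = 0.912). Myh15 had 11, 5 and 8 counts against 6, 2 and 3 and did not pass the filter. Nonmuscle Myh9 was at 302 ± 31.9 and 305 ± 15.1 CPM, and smooth muscle Myh11 at 70.0 ± 15.9 and 56.8 ± 8.94 CPM (adjusted p = 0.444). Of the 7 genes listed, 6 were tested and 0 were called by edgeR, with 0 at an unadjusted p under 0.05 and 0 by DESeq2 or limma-voom.

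Over all 15600 genes, edgeR called 75 lower, or 0.481%, and 121 higher, or 0.776%, at an adjusted p under 0.05. The edgeR calls in the following lists are read against these shares. Over the same genes, DESeq2 called 235 lower and 304 higher, and limma-voom 62 lower and 118 higher. The share of all genes at an unadjusted p under 0.05 is not given here, so nothing is read from list counts at that threshold. The lists were drawn up with earlier results of these data known. The median log2 fold change of all genes was -0.00371.

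None of the partners of the heavy chains in the thick filament passed the test. The list of myosin light chains, which stiffen the neck of the myosin head, also holds light chain kinases (Mylk2, Mylk3 and Mylk4), and edgeR called 0 of its 8 tested genes, with a median log2 fold change of 0.39. At an unadjusted p under 0.05, the kinase Mylk3 was lower, and the light chains Mylpf, Myl2 and Myl6b and the kinase Mylk2 were higher, while DESeq2 called Mylpf and Myl6b higher. The regulatory light chain of fast fibres, Mylpf, lay at 6748 ± 348 and 10602 ± 2313 CPM (log2 fold change 0.65, adjusted p = 0.121). The essential light chain gene Myl1 was at 4031 ± 855 and 5359 ± 810 CPM (adjusted p = 0.316), and Myl6b, a light chain of slow muscle, at 66.4 ± 9.54 and 110 ± 34.8 CPM (adjusted p = 0.149).

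Of 17 tested genes of the thick filament and M band, edgeR likewise called 0, with a median of 0.13. Here 1 was lower and 5 were higher at an unadjusted p under 0.05, DESeq2 called 1 lower and 4 higher, and limma-voom called 0 in either list. Mybpc1 and Mybpc2, the slow and fast forms of myosin-binding protein C, stood at 1805 ± 144 and 2888 ± 623 CPM (adjusted p = 0.101) and at 118 ± 26.2 and 189 ± 15 CPM (adjusted p = 0.0828). The giant spring protein titin, Ttn, lay at 1812 ± 213 and 2064 ± 458 CPM (adjusted p = 0.644).

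Among 18 fast fibre genes, 1 was called, and it fell. Fbp2, the muscle form of fructose bisphosphatase, lay at 148, 128 and 111 CPM in OsxCre and at 45.4, 40.6 and 44.6 CPM in the libraries labelled OsxCre;Stat3fl/fl (log2 fold change -1.57, SE 0.11, adjusted p = 0.00294). Like Myh4, it was lower in each library of the second group, while the median of the list was 0.43. At an unadjusted p under 0.05, 9 genes of the list were higher and 1 lower, and DESeq2 called 7 higher and 1 lower.

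Among 16 tested slow fibre genes, edgeR called 1 lower and 2 higher, with a median of 0.48. In this list, 9 were higher and 1 lower at an unadjusted p under 0.05, and DESeq2 called 8 higher and 1 lower. Fabp3, a fatty acid carrier of oxidative muscle and heart, fell from 499 ± 57.4 to 198 ± 13.9 CPM (log2 fold change -1.33, adjusted p = 0.00363). Csrp3, the muscle LIM protein of the Z disc, rose from 157 ± 10.5 to 390 ± 91.9 CPM (1.31, adjusted p = 0.0154). Ankrd2, an ankyrin repeat protein that responds to stretch, rose from 18.5 ± 2.33 to 84.5 ± 32.9 CPM (2.19, adjusted p = 0.0154). The fast and slow lists thus each held a gene that fell, and Fbp2 and Fabp3 passed the test in each of the 6 fits that leave out 1 library. Csrp3 and Ankrd2 passed in 4 of the 6, with an adjusted p of up to 0.0888.

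Of 23 tested genes of developing muscle, 1 rose, the cardiac actin gene Actc1, which skeletal muscle uses before birth. It lay at 376, 373 and 442 CPM in OsxCre and at 1256, 1839 and 914 CPM in the libraries labelled OsxCre;Stat3fl/fl (log2 fold change 1.75, SE 0.24, adjusted p = 0.02). Its order over the 3 libraries of the second group was that of Myh3, with library 2 highest and library 3 lowest. It passed the test in 3 of the 6 fits that leave out 1 library, with an adjusted p of up to 0.0967. The median of the list was 0.17. In this list, 3 genes were higher and 1 lower at an unadjusted p under 0.05, and DESeq2 called 1 higher and 1 lower.

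Of 43 tested genes listed as regulators of fibre type, such as Mef2, Nfat and Tead factors and also the Z disc gene Tcap, 1 rose. Foxo3, a transcription factor of muscle atrophy that many other tissues use as well, went from 71.5 ± 3.66 to 111 ± 12.3 CPM (log2 fold change 0.63, adjusted p = 0.0285), and it passed the test in 1 of the 6 fits without 1 library. The median of this list was -0.02, and 7 genes were lower and 7 higher at an unadjusted p under 0.05.

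**Figure D5:**
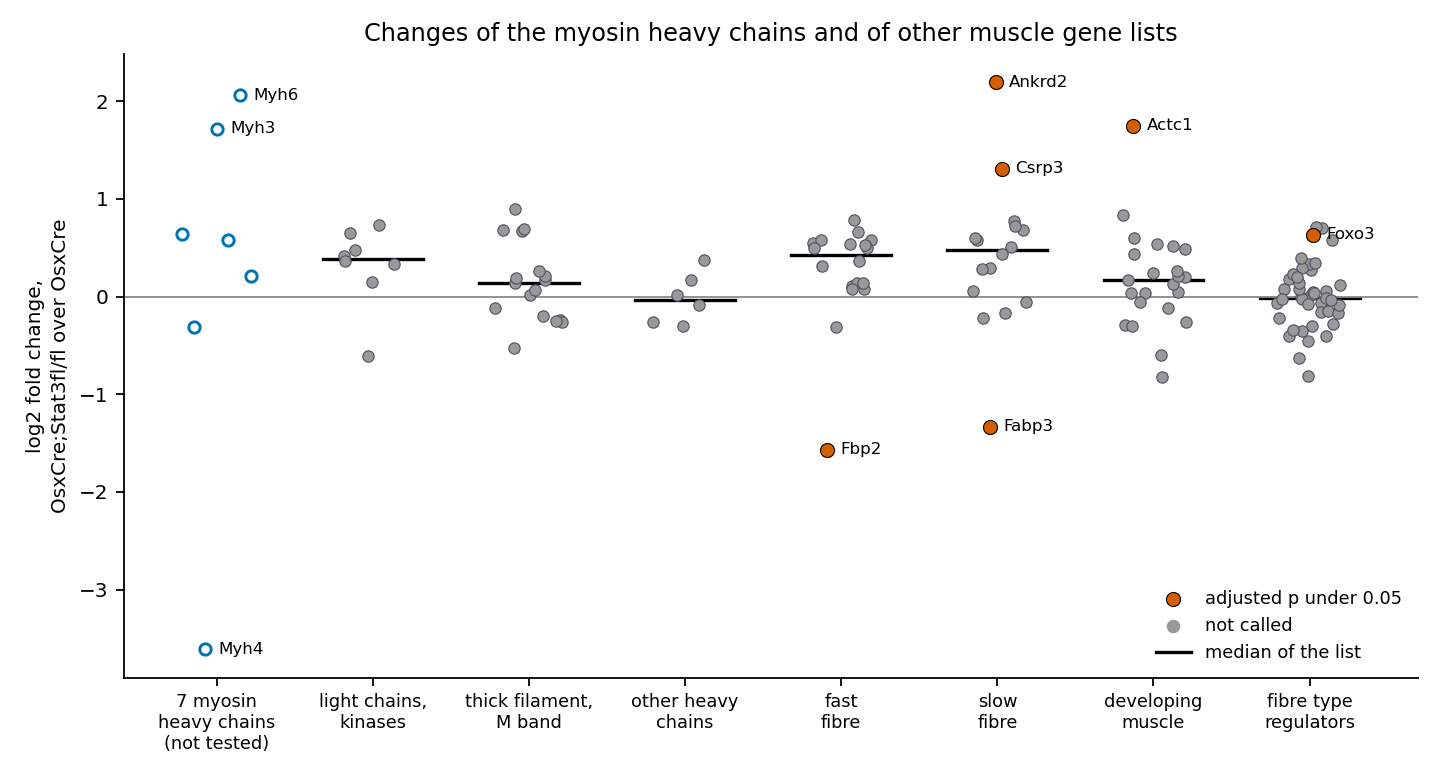
The log2 fold change (OsxCre;Stat3fl/fl over OsxCre) of the 7 myosin heavy chains (open circles, not tested) and of the tested genes of 7 muscle lists, with genes at an adjusted p under 0.05 in orange and the median of each list as a bar. The members span -3.61 to 2.06, while 6 genes of the lists were called, Fbp2 and Fabp3 below 0 and Ankrd2, Csrp3, Actc1 and Foxo3 above.

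Levels of cell type markers were compared between the genotypes as well. Of the 12 skeletal muscle markers, 10 had a positive and 2 a negative log2 fold change, and edgeR called 0, with 6 higher and 2 lower at an unadjusted p under 0.05 and 6 higher and 1 lower by DESeq2. Of the 9 osteoblast markers, 7 had a negative and 2 a positive log2 fold change. EdgeR called 1 of them, Ibsp, which fell with a log2 fold change of -0.66 (edgeR adjusted p = 0.0213). With Alpl (-0.54, edgeR adjusted p = 0.0578), 2 were lower at an unadjusted p under 0.05, and DESeq2 called 2 lower. Erythroid markers summed to 7230 to 9418 CPM in OsxCre and to 3606 to 6578 CPM in the other group, without overlap, and 0 of 7 tested were called, with 3 lower at an unadjusted p under 0.05 and 1 lower by DESeq2. The sums of smooth muscle markers (2305 to 2490 against 2091 to 2962 CPM) and osteoclast markers (2244 to 2614 against 1965 to 2702 CPM) overlapped. EdgeR called 0 in either list. At an unadjusted p under 0.05, 1 smooth muscle marker was lower and 1 osteoclast marker, Ocstamp, was higher. DESeq2 and limma-voom each called 1 osteoclast marker higher. The part of cell contents in the differences of Myh1, Myh8 and the lists was not tested. The shares of the 7 genes and their levels per muscle marker are the values that bear on that part for Myh3, Myh4 and Myh2.

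The genes whose pattern over the 6 libraries was most like that of Myh4 and of Myh3 were read from all tested genes by the root mean square difference of centred log2(CPM + 0.5). For Myh4, the nearest were C130046K22Rik (0.269, with 53, 54 and 63 counts against 1, 1 and 2), 2310015K22Rik (0.862) and Kpna2 (0.883), all at under 9 CPM. C130046K22Rik (chr11:103697724-103725573) and Kpna2 (chr11:106988629-106999525) lie on chromosome 11, as do Myh4 and Stat3, and 2310015K22Rik lies on chromosome 1. Stat3 lies at chr11:100886806-100939594, closer to these 2 genes than to Myh4. The part of alleles linked to Stat3 in these differences was not tested. For Myh3, the nearest was Actc1, with a difference of 0.0747, followed by Gm807 (0.160) and Cplx3 (0.174), both with at most 21 counts in a library. A gene at the level of Myh4 with a decrease as large was thus not among its nearest 3.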

How the data were processed

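Poly(A) RNA, per the labels (total RNA in the study's Methods), from newborn parietal bone was sequenced from 3 OsxCre and 3 OsxCre;Stat3fl/fl mice. The authors deposited raw counts per gene symbol for each library, without normalization. The labels name HISAT2 and GRCm38 in the processing notes, whereas the Methods name TopHat and mm9, and the counter, annotation, strand setting and treatment of multiply matching reads are not given in the sources used here.

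Groups followed the genotype label. Genes of low count were removed by filterByExpr (at least 10 counts, 15 in total), libraries scaled by TMM and tested with edgeR 4.0.16 (R 4.3.3), quasi-likelihood, two-sided, with Benjamini-Hochberg adjustment over 15600 genes. An adjusted p under 0.05 was a call. CPM used TMM-scaled library sizes. Same-genotype libraries were not duplicates (chi-square per degree of freedom 8.17 to 17.2). On simulated counts, 63.4% of 194 genes changed 2-fold were recovered, with 19 other calls among 15407 genes. The share of false calls among all calls there was above the nominal 0.05.

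Members and lists were chosen with earlier results of these data known. Named genes were the members, Stat3, the called genes of each list (at most 4 per direction), or where none was called the 2 most abundant and 2 of smallest p, Myh7b, Myh13 and Myh15, and the 3 genes most like Myh4 and Myh3. Ibsp, markers and sex-linked genes served as checks. Positions and promoters came from RefSeq (GRCm38.p6), lengths and coding sequences from GENCODE M1 transcripts. Alternatives were other scalings, no filter, DESeq2 1.42.0, limma-voom (limma 3.58.1), a replicate block, and leaving out each library.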

Additional observations from a re-analysis of the deposited data

How the results depend on the processing

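Myh4 and Myh3 kept their direction in every setting run. Their log2 fold changes moved to -4.00 and 1.32 without scaling, where the median of all genes was -0.381, and to -4.01 and 1.26 relative to the muscle markers, and stayed within their spread in the other settings. The shares of the isoform classes moved by less than their spread in every setting. Myh6 ranged from -0.38, without OsxCre;Stat3fl/fl replicate 2, to 2.58 with 1 library left out, and Myh7 turned to -0.19 without scaling and -0.20 relative to the muscle markers. The number of members past 1.5-fold was 2 lower without scaling, and from 1 to 2 lower and 1 to 4 higher with 1 library left out, where the 2 lower (Myh4 and Myh2) and the 1 higher (Myh3) both came without OsxCre;Stat3fl/fl replicate 2. Genes called, 75 lower and 121 higher as reported, were 114 lower with library totals, 5451 lower without scaling, 178 and 250 without a filter, 235 and 304 with DESeq2, and 5 to 36 lower and 7 to 67 higher with 1 library left out. With the replicate block, 1 gene was lower and 0 were higher, and none of the listed genes kept its call. Same-numbered libraries correlated at -0.103, -0.524 and -0.0774 in their deviations from the group mean. Differently numbered ones correlated at -0.45 to 0.52. With 3 libraries per genotype, these values cannot exclude a pairing, and the labels give none. Without scaling, the calls lower were 1 gene of the light chain list, 6 thick filament, 1 other heavy chain, 2 fast fibre, 2 slow fibre, 4 developing muscle and 18 regulator genes, with 0 regulators higher, all beside the shifted median. Without a filter, 1 gene of the light chain list, 3 thick filament and 7 slow fibre genes were higher and 1 developing muscle gene was lower. DESeq2 called 2 light chain, 4 thick filament, 7 fast, 8 slow and 4 regulator genes higher, and 1 thick filament, 1 developing muscle and 1 regulator gene lower. With 1 library left out, the higher calls ranged from 0 to 1 for thick filament genes, 0 to 2 for slow fibre genes, 0 to 1 for developing muscle genes and 0 to 1 for regulators. With 3 mice per genotype, 1 tissue and no count of Cre-targeted alleles, differences between genotypes and between the muscle content of the samples cannot be told apart. The causes of these shifts were not tested.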
